A study of Mus musculus with 36 samples.

Results

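The genes described here are 10 genes of bile acid synthesis and transport: Cyp7a1, Cyp8b1, Cyp27a1, Cyp7b1, Slc10a1, Abcb11, Nr0b2, Nr1h4, Slco1b2 and Baat. They were taken as the rows of each count table whose gene symbol was one of these names, and all 10 were found among 21955 symbols. All 10 also passed the filter on low counts, which left 13436 genes in the test. Livers of C57BL/6JN mice, an inbred laboratory strain, were sampled during regeneration, with animals of 4 months as the young and of 18 months as the old, and the submitters named the old as the treated group. Each age was sampled before and at time points labelled 48, 72, 96, 120 and 240, with 3 libraries in each of the 12 groups and 36 libraries in all. The labels give neither a unit for the time points nor the way regeneration was induced, and no genotype or drug is named. The design text calls the 3 libraries of a group biological replicates without saying that each is 1 animal.

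Hepatocytes make bile acids from cholesterol. In the classic route Cyp7a1 catalyses the first and rate-limiting step, and Cyp8b1 steers the product toward cholic acid. In the alternative route the mitochondrial enzyme Cyp27a1 oxidises the side chain and Cyp7b1 hydroxylates the resulting oxysterols. Baat joins the finished acid to taurine. Slc10a1 (NTCP) and Slco1b2 take bile acids up from the blood, and Abcb11 (BSEP) pumps them into the canaliculus. Nr1h4 encodes FXR, the nuclear receptor that senses bile acids. It induces Abcb11 and Nr0b2, and Nr0b2 (SHP) in turn represses Cyp7a1 and Cyp8b1. A regenerating liver passes the whole bile acid pool through a reduced cell mass, and this feedback is known to limit injury there.

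Levels are given as CPM, counts scaled to library size with TMM factors. CPM does not correct for gene length, so levels are compared between groups of a gene and not between genes. Library totals ran from 2328233 to 6034446 counts, with medians of 4359436 in young and 4514482 in old. Of 8 listed hepatocyte markers 7 were in the tables and none was at 0 in any group, and their summed level ran from 43657 to 75516 CPM. In bulk tissue, fewer hepatocytes and less RNA per hepatocyte cannot be told apart. Several libraries stood apart. In each group 1 library stood out, so that in 12 libraries the Y-linked transcripts of Kdm5d, Uty, Ddx3y and Eif2s3y summed to at least 177 CPM, against at most 0.212 CPM in the other 24, and the labels give no sex. These were replicate 1 of young before, 120 and 240 and of old before, 48, 96 and 240, replicate 2 of young 96, and replicate 3 of young 48 and 72 and of old 72 and 120. Old replicate 2 at 48 had the lowest mean correlation with its own group of all 36 libraries (0.904), and the other old libraries at 48 came next (0.925 and 0.935). Old replicate 1 before had 20255 genes with a count, against 15073 to 18309 in the other libraries.

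Group means were spread widely within the pathway. The young group before held the highest of the 12 group means for 7 of the 10 genes: Cyp8b1, Cyp27a1, Slc10a1, Abcb11, Nr0b2, Nr1h4 and Slco1b2. The old group at 48 held the lowest mean for 8: Cyp7a1, Cyp8b1, Cyp27a1, Cyp7b1, Slc10a1, Abcb11, Slco1b2 and Baat. For Cyp8b1, Cyp7b1, Slc10a1 and Slco1b2 this place rested on old replicate 2 at 48. Without it their means there were 422, 53.6, 352 and 849 CPM. Old at 72 was lower for Cyp8b1 (310 CPM) and Cyp7b1 (43.5 CPM), and young at 72 for Slc10a1 (301 CPM) and Slco1b2 (772 CPM). Cyp7a1, Cyp27a1, Abcb11 and Baat stayed lowest in old at 48. Nr1h4 was lowest in young at 48, and Nr0b2 in young at 240. The highest mean fell in old at 240 for Cyp7a1, in young at 240 for Cyp7b1 and in old before for Baat. The plot of all libraries by time shows these levels.

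**Figure D1:**
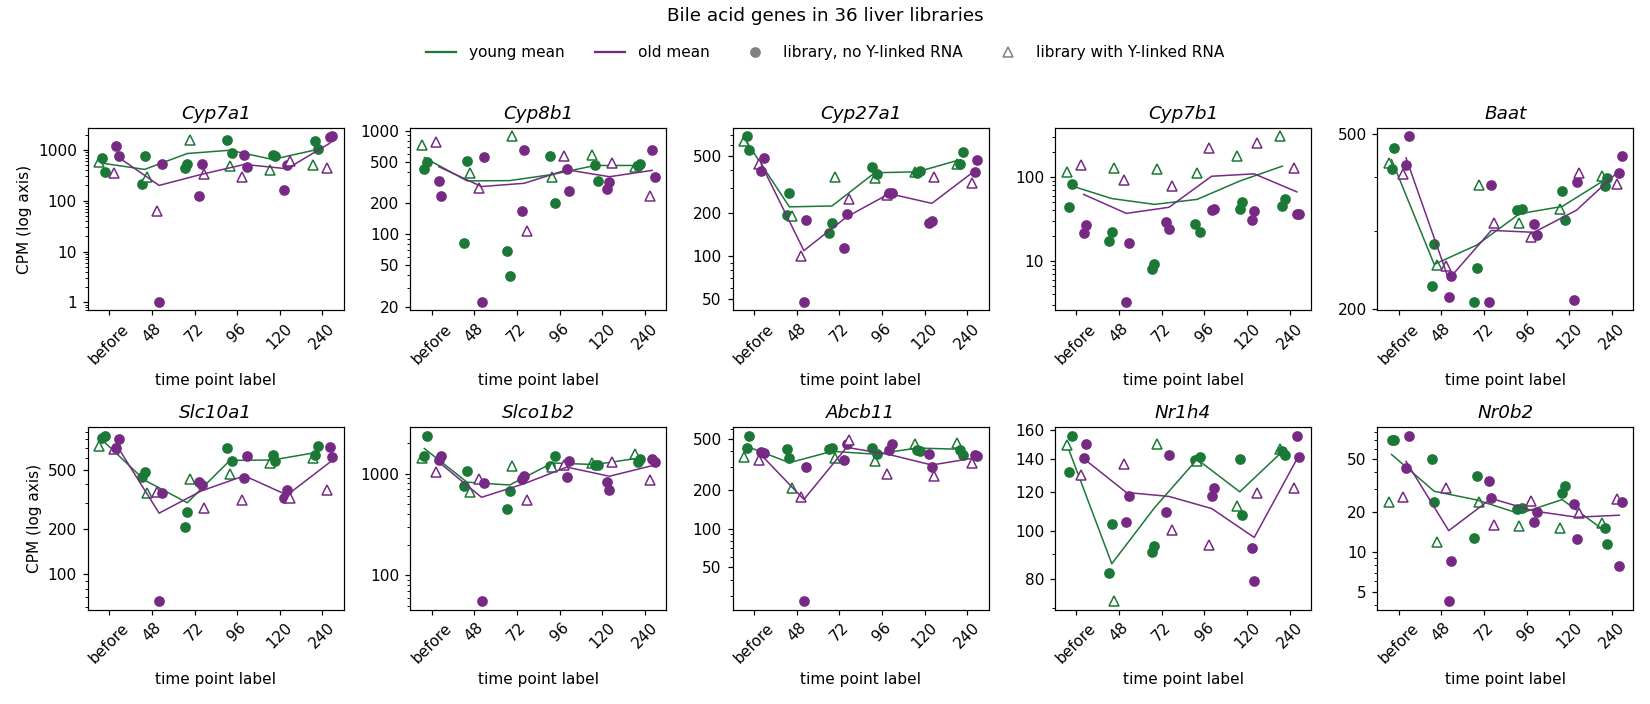
CPM of each of the 10 genes (log axis) against the time point label, with 1 point per library, a triangle for each of the 12 libraries with Y-linked transcripts and lines through the group means of young (green) and old (purple). At 48 every library of Cyp27a1 and Baat lies below its age's libraries before, Cyp7b1 is highest in the triangle of every group, and 1 old library at 48 lies lowest for 8 genes.

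How far libraries of a group lay apart differed between the genes. The highest of 3 libraries was at the median over the 12 groups 1.17 times the lowest for Baat, 1.30 times for Nr1h4, 1.34 times for Abcb11 and 1.36 times for Cyp27a1. For Cyp7a1 this ratio was 3.48, for Cyp8b1 2.85 and for Cyp7b1 5.93. Old replicate 2 at 48 was the lowest of its group for all 10 genes and the lowest of all 36 libraries for 8, the exceptions being Nr1h4 and Baat. Its 5 counts of Cyp7a1 gave 1.01 CPM, whereas the other old libraries at 48 held 62.0 and 538 CPM. Young replicate 3 at 72, a library with Y-linked transcripts, was the highest of its group for 8 of the 10 genes, and young replicate 1 at 72 was the lowest for 8. These counts describe the libraries and carry no test.

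The first comparison asked how the 10 genes moved from before to each later time point in each age. Every called change was a fall, and the calls were confined to 48 and 72. A gene was called where the adjusted p was under 0.05 in edgeR's quasi-likelihood test, with Benjamini-Hochberg adjustment over all 13436 genes. In young mice at 48, Cyp27a1, Baat and Nr1h4 fell, 3 of 10 against 9.79% of all tested genes. In young at 72, Cyp27a1, Slc10a1 and Baat fell, 3 of 10 against 8.21%. In old mice at 48, Cyp27a1, Slc10a1, Abcb11, Nr0b2 and Baat fell, 5 of 10 against 12%. In old at 72, Cyp27a1 alone of the 10 was called, against 5.81%. The median log2 change of the 10 genes was -0.78 in young at 48, -0.76 in young at 72, -1.15 in old at 48 and -0.63 in old at 72, where the medians over all tested genes were -0.01, 0.01, 0.01 and -0.01. At 96, 120 and 240 none of the 10 was called in either age, where 0.737%, 0.365% and 0.194% of all genes were called lower in young and 3.07%, 2.02% and 0.141% in old. Of these late tests, 3 of 30 in young and 7 of 30 in old had an unadjusted p under 0.05, all lower. The share of all genes under this unadjusted threshold was not counted, so these counts have no background to be read against. DESeq2 called 1 of the late tests (Slc10a1 in old at 120). Fits of only the groups compared called 3 late changes, Cyp27a1 in young at 96 and 120 (adjusted p 0.0194 and 0.0242) and Slc10a1 in old at 120. Fitted without the libraries with Y-linked transcripts, Nr1h4 was called in old at 120 (adjusted p 0.0154), and without old replicate 3 at 120 Cyp27a1 and Nr1h4 were called there (adjusted p 0.0361 and 0.0375). Of the 50 changes in each age 44 were below 0. The 5 comparisons of an age share its 3 libraries before. Without old replicate 2 at 48, 3 of 10 genes were called in old at 48, 5 in young at 48 and 4 in young at 72. In old, 2 were called at 72 and 1 at 120. All of these calls were falls. In the same order, 16.8%, 24.6%, 20.2%, 15.4% and 6.35% of all genes were called in either direction, which includes genes that rose. Without old replicate 1 before, the calls in old at 48 were the same but for Abcb11 (adjusted p 0.0569). With scaling by total counts the median change of all genes reached up to 0.21 (young at 72), and 7 to 10 of the 10 genes were still below 0 in each of the 10 comparisons.

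**Figure D2:**
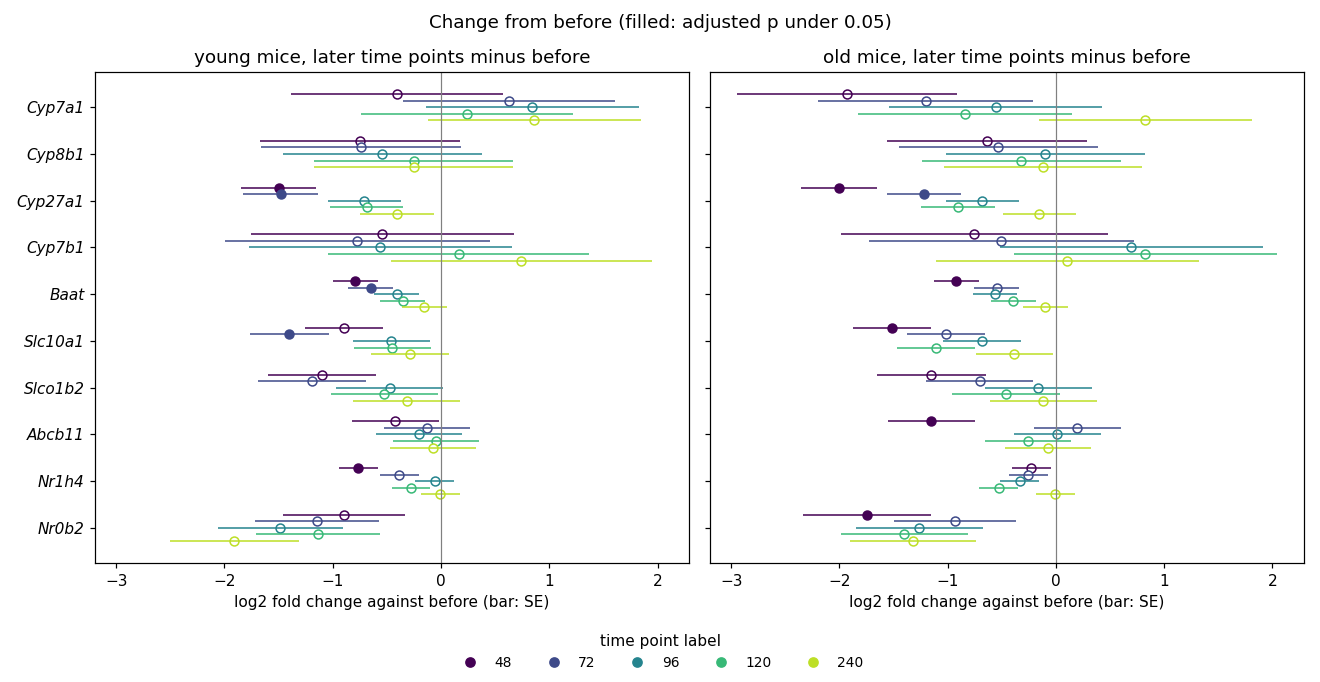
Log2 fold change of each gene at each later time point against before, in young (left) and old (right), with bars of 1 SE; filled points have an adjusted p under 0.05. The 6 filled points of each age lie below 0 and belong to 48 and 72, and bars are widest for Cyp7a1, Cyp8b1 and Cyp7b1.

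Among the synthesis enzymes, Cyp27a1 (chr1:74713574-74737892, plus strand, GENCODE gene span on GRCm38, as for all loci here) was the gene called in both ages at both 48 and 72. Its level in the 3 young libraries before was 642, 686 and 549 CPM. It was 196, 279 and 189 CPM at 48 and 145, 171 and 358 CPM at 72. The groups did not overlap, and the highest young library at 72 was the one with Y-linked transcripts. The fall was 2.83-fold at 48 (log2 change -1.50 ± 0.35 SE, adjusted p 0.00198) and 2.79-fold at 72 (-1.48 ± 0.34, adjusted p 0.00402). In old mice the level was 439.5, 393 and 483 CPM before, 100.5, 47.8 and 180.2 CPM at 48 and 115, 198 and 251 CPM at 72. The old libraries at 48 and at 72 all lay below those before. The log2 change was -2.001 ± 0.35 at 48 (adjusted p 0.00022), a fall of 4.00-fold, and -1.22 ± 0.34 at 72 (adjusted p 0.0189). The change in old at 48 was -1.61 ± 0.34 without old replicate 2 there (adjusted p 0.00203), and the call at 72 was lost without old replicate 3 before (adjusted p 0.0827) or without old replicate 1 at 72 (adjusted p 0.0993). Fitted with old before and old at 48 alone, the change at 48 was -1.98 and was not called (adjusted p 0.0687).

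The later group means of Cyp27a1 lay between the low values at 48 and 72 and the level before. In order from high to low, the means ± SD (n = 3 each) were 626 ± 69.9 CPM in young before, 472 ± 53.97 in young at 240, 438 ± 45.03 in old before, 394 ± 75.7 in old at 240, 389 ± 5.10 in young at 120 and 383 ± 34.8 in young at 96. The lower 6 were 274 ± 3.97 in old at 96, 234 ± 105 in old at 120, 224 ± 116 in young at 72, 221 ± 49.8 in young at 48, 188 ± 68.4 in old at 72 and 109 ± 66.7 in old at 48. Of the neighbours in this order, young before and young at 240, and young at 96 and old at 96, had libraries that did not overlap, and the ranges of all other neighbours overlapped.

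The 250 bases before the RefSeq start of Cyp27a1 (chr1:74713285-74713534, plus strand, GRCm38.p6) are shown because this gene was called most often. Capitals mark a match to TTATGNAA, a loosened pattern of the D-box, to which Dbp and related clock output factors bind. The pattern lets any base stand where N is, and the marked stretch reads TTATGAAA. Whether Dbp binds this stretch was not tested.

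Cyp27a1: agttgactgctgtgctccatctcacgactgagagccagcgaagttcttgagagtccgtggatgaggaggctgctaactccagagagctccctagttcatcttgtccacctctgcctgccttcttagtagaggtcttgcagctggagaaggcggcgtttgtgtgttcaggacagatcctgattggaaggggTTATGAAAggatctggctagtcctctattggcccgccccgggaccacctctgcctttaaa

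The match begins 60 bases before the start, on the strand of the gene. Matches on either strand were found in 3.07% of 32851 promoter windows of the same length, and a match is a description, not a binding site. Of the 10 genes 7 had a window in the RefSeq table (8 windows, with a pair for Slc10a1), and motifs were chosen with these windows in view. The clock output gene Dbp itself, listed among 6 clock genes, stood at 90.5, 90.5 and 66.1 CPM in young before and at 3.27, 4.14 and 7.15 CPM at 48. At 72 Dbp stood at 22.4, 31.4 and 59.6 CPM in young. In old mice it stood at 62.2, 86.01 and 55.9 CPM before, 12.7, 3.04 and 2.05 CPM at 48 and 9.44, 3.98 and 37.1 CPM at 72. Of the 6 clock genes, 5 were called lower and 1 higher in young at 48, against 9.79% and 12.2% of all genes. In old at 48, 3 were called lower and 1 higher, against 12% and 12.1%. At 72 in young, 0 were called lower and 1 higher, against 8.21% and 9.21%. At 72 in old, 2 were called lower and 1 higher, against 5.81% and 6.54%. The summed level of the 6 was 345 to 500.4 CPM in young before, 86.4 to 119 CPM at 48 and 204 to 311 CPM at 72. In old it was 302 to 425 CPM before, 122 to 203 CPM at 48 and 102 to 302 CPM at 72. The part of clock phase or time of day in the falls was not tested.

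Baat (chr4:49489422-49506557, minus strand), the conjugating enzyme, varied least within groups. Its level in young mice was 430.2, 417 and 465 CPM before, 225, 281 and 251 CPM at 48 and 207, 248 and 383 CPM at 72. All libraries at 48 and 72 lay below all libraries before. The log2 change was -0.79 ± 0.21 at 48 (adjusted p 0.00607) and -0.65 ± 0.21 at 72 (adjusted p 0.0305). The call at 72 was the least steady in young and was lost in 8 of 45 other settings, among them leaving out any library before or replicate 1 or 2 at 72 (highest adjusted p 0.187). The call at 48 was lost when only libraries without Y-linked transcripts were fitted (adjusted p 0.0621). In old mice Baat stood at 405, 426 and 494 CPM before and 251, 213 and 237 CPM at 48, a log2 change of -0.92 ± 0.21 (adjusted p 0.00224) that was not called when these 2 groups were fitted alone (adjusted p 0.0604). At 240 the old libraries stood at 385, 407 and 447 CPM and the young at 401, 381 and 398 CPM.

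Cyp7a1 (chr4:6265612-6275633, minus strand), the rate-limiting enzyme, was called in none of the 10 comparisons with before. Its level in young mice was 579.8, 701 and 366 CPM before, 209, 743 and 289 CPM at 48 and 432, 533 and 1584 CPM at 72. The groups overlapped, and at 72 the library with Y-linked transcripts stood far above the other two. In old mice it was 348, 1185 and 756 CPM before, 62.02, 1.01 and 538 CPM at 48 and 124, 540.3 and 331 CPM at 72. The old libraries at 48 spanned from near 0 to a level within the range before, 531 times apart. The log2 change in old at 48 was -1.93 ± 1.01 (adjusted p 0.167), and its size hung on single libraries. Without old replicate 3 at 48, the library at 538 CPM, it was -4.60 (adjusted p 0.00503). Without old replicate 2 at 48, the library at 1.01 CPM, it was not called. At 240 Cyp7a1 stood at 500.2, 1469 and 1024 CPM in young and 437, 1775 and 1839 CPM in old, with log2 changes of 0.86 ± 0.99 and 0.82 ± 0.98 that were not called. The old mean at 240, 1350.4 ± 791 CPM (SD, n = 3), was the highest of the 12, and its libraries overlapped with old before.

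Cyp8b1 (chr9:121914356-121916305, minus strand) was called in no comparison with before, and in several groups single libraries lay far from the others. In young mice it stood at 719.8, 428 and 499.5 CPM before, 81.9, 511 and 389 CPM at 48 and 69.2, 39.9 and 879 CPM at 72. At 72 replicates 1 and 2 were far below replicate 3 and below every library before. The fitted change at 72 was -0.74 ± 0.92 (adjusted p 0.631), and without replicate 3 it was -3.31 (adjusted p 0.021). In old mice it stood at 783, 326 and 236 CPM before, 282, 22.1 and 561 CPM at 48 and 167, 656 and 107 CPM at 72. By 240 the young libraries were within a narrow range, 449, 459.8 and 475 CPM.

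Cyp7b1 (chr3:18071950-18243338, minus strand) was highest in every group in the library with Y-linked transcripts, and its median spread within groups was the widest of the 10. In young mice it stood at 114, 43.8 and 81.8 CPM before, 17.2, 22.2 and 126 CPM at 48 and 8.03, 9.24 and 124 CPM at 72. The library with Y-linked transcripts was far above the others at 48 and 72, and before it was the highest by a smaller margin. With group means alone the changes of -0.54 ± 1.22 and -0.77 ± 1.22 were not called (adjusted p 0.795 and 0.711). With a term for the Y-linked transcripts in the fit, Cyp7b1 was called lower in young at 48 and 72, where 11.1% and 9.33% of all genes were. The log2 changes were -1.18 ± 0.43 (adjusted p 0.046) and -1.73 ± 0.44 (adjusted p 0.0074). This fit assumes the same change with and without Y-linked transcripts. The young libraries with them showed no fall, at 114 CPM before, 126 CPM at 48 and 124 CPM at 72, 1 library each. Among the libraries without these transcripts alone, the changes were -1.67 (adjusted p 0.0146) and -2.85 (adjusted p 0.00116). In those libraries the level went from 43.8 and 81.8 CPM before to 8.03 and 9.24 CPM at 72, without overlap. In old mice Cyp7b1 was called at no time point with the term, with -0.96 ± 0.44 at 48 (adjusted p 0.102), and its level without Y-linked transcripts was 21.7 and 27.1 CPM before and 3.24 and 16.6 CPM at 48.

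Among the uptake transporters, Slc10a1 (chr12:80953183-80968705, minus strand), the sodium-dependent carrier of conjugated bile acids, fell in young at 72 and in old at 48. In young mice it stood at 726, 809.5 and 847 CPM before, 446, 480.4 and 352 CPM at 48 and 206, 261 and 436 CPM at 72. Neither later group overlapped with before. The change at 72 was -1.40 ± 0.36 (adjusted p 0.00851), which was lost without young replicate 1 at 72 (adjusted p 0.0642), and at 48 it was -0.90 ± 0.36 (adjusted p 0.0716). In old mice the level was 691, 703 and 802 CPM before, 353, 66.04 and 351 CPM at 48, 413, 397 and 277 CPM at 72 and 325, 366 and 325 CPM at 120. All of these later libraries lay below the lowest library before. The change at 48 was -1.51 ± 0.36 (adjusted p 0.00361), and those at 72 and 120, -1.02 ± 0.36 and -1.11 ± 0.36, missed the threshold (adjusted p 0.0608 and 0.0752). With old replicate 2 at 48 left out, Slc10a1 was called in young at 48 (adjusted p 0.00789) and in old at 48, 72 and 120 (adjusted p 0.0109, 0.00593 and 0.00763), with a change in old at 48 of -1.03 ± 0.27. When only the groups compared were fitted, Slc10a1 was not called in old at 48 (adjusted p 0.176). In such fits it was called in old at 72 and 120 (adjusted p 0.022 and 0.026) and in young at 48 (-0.89, adjusted p 0.0015).

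Slco1b2 (chr6:141629518-141686646, plus strand), the sodium-independent carrier, was called in no comparison with before. It stood in young mice at 1416, 1506 and 2368 CPM before, 754, 1059.7 and 658 CPM at 48 and 453, 680.3 and 1183 CPM at 72. The later groups lay below the one before without overlap. The changes were -1.10 ± 0.50 (adjusted p 0.119) and -1.19 ± 0.50 (adjusted p 0.101). In old mice at 48 it stood at 888, 55.5 and 811 CPM, against 1046, 1357 and 1488 CPM before, without overlap, and a change of -1.15 ± 0.50 (adjusted p 0.0934). Slco1b2 was called once old replicate 2 at 48 was left out: it fell in young, with changes of -1.07 ± 0.28 at 48 and -1.18 ± 0.28 at 72 (adjusted p 0.00583 and 0.00411), and in old at 48 the change was -0.58 ± 0.32 (adjusted p 0.212).

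Abcb11 (chr2:69238282-69342616, minus strand), the canalicular export pump, was called in old mice at 48 alone. In young mice it stood at 361, 422 and 531 CPM before and 416, 358 and 206 CPM at 48, and the groups overlapped. In old mice it stood at 340.4, 397 and 387 CPM before, 176, 27.1 and 303 CPM at 48 and 343, 456 and 491 CPM at 72. Every old library at 48 lay below every old library before. At 72 replicate 1 lay within the range before and the other two above it. Its fall in old at 48 was a log2 change of -1.15 ± 0.41 (adjusted p 0.0385). Leaving out old replicate 2 at 48, it was -0.61 ± 0.25 (adjusted p 0.0959), and the call was also lost without any 1 of the 3 old libraries before or without replicate 1 at 48, with adjusted p up to 0.373 over all settings.

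The 250 bases before the RefSeq starts of Abcb11 (chr2:69342617-69342866, minus strand) and Slco1b2 (chr6:141629268-141629517, plus strand, both GRCm38.p6) are shown together because both hold the arrangement of an FXR element, inverted repeats set 1 base apart. Capitals mark matches to AGGNCA and TGACCT with 1 base between them in both, and in Slco1b2 also to GTTAATNAT, an HNF1-type motif, and to TTCNNNGAA, a STAT5 site.

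Abcb11: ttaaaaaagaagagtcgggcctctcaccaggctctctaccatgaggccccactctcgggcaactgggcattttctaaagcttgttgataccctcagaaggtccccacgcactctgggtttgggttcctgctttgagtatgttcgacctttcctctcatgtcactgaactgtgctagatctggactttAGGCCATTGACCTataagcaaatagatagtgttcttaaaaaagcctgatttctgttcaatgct
Slco1b2: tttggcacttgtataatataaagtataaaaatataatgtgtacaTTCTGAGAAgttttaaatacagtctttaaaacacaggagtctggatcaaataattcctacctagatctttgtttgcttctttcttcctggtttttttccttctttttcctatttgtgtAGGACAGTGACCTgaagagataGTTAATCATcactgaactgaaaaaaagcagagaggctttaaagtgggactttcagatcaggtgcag

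The FXR-type match reads AGGCCATTGACCT and begins 63 bases before the start in Abcb11, and it reads AGGACAGTGACCT and begins 88 bases before the start in Slco1b2. It was found on either strand in 11 of 32851 windows (0.0335%), and 2 of the 8 windows of the 10 genes were among these. The pattern was chosen with these windows in view, so setting the 2 against that share is not a test of enrichment. In both it contains the repeat unit AGGTCA on the opposite strand, which 14% of windows hold. The HNF1-type match at 66 bases is shared with 0.737% of windows and the STAT5-type match at 206 bases with 7.02%. In old at 48 the libraries gave 176, 27.1 and 303 CPM of Abcb11 and 888, 55.5 and 811 CPM of Slco1b2, and replicate 2 was the low one in both.

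The bile acid sensor Nr1h4 (chr10:89454234-89533585, minus strand) fell in young mice at 48. Its level there was 82.2, 103 and 72.2 CPM, against 149, 132 and 156 CPM before. The groups did not overlap, and the change was -0.76 ± 0.18 (adjusted p 0.00254). In the other settings tried this call was not lost, with adjusted p from 0.000489 to 0.0312. In old mice at 48 the level was 137, 105 and 118 CPM, against 129.8, 141 and 150.1 CPM before, a change of -0.23 ± 0.18 (adjusted p 0.369) with overlap. The lowest old mean came at 120, with 92.5, 79.3 and 119.7 CPM and a change of -0.53 ± 0.18 (adjusted p 0.0922). At 240 the means were 145 ± 2.06 CPM in young and 140.0 ± 16.9 CPM in old (SD, n = 3), close to the 146 ± 12.7 and 140.3 ± 10.2 CPM before.

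The repressor Nr0b2 (chr4:133553376-133556536, plus strand), an FXR target, had the most negative change of the 10 genes at 240 in both ages, although neither was called. In young mice it stood at 23.7, 69.9 and 69.98 CPM before, 50.7, 23.8 and 11.8 CPM at 48 and 16.6, 15.2 and 11.5 CPM at 240. The libraries at 240 all lay below those before, of which replicate 1, with Y-linked transcripts, was the low one. The change was -1.48 ± 0.58 at 96, -1.13 ± 0.57 at 120 and -1.91 ± 0.60 at 240 (adjusted p 0.204, 0.436 and 0.412). In old mice the level was 26.1, 43.3 and 75.7 CPM before, 30.7, 4.25 and 8.59 CPM at 48 and 25.3, 7.83 and 23.8 CPM at 240. Its fall at 48 was a log2 change of -1.75 ± 0.59 (adjusted p 0.0323), although replicate 1 at 48 overlapped with before. Without old replicate 2 at 48 it was -1.28 ± 0.62 (adjusted p 0.157), and the call was lost in 6 of 45 settings, among them leaving out old replicate 2 or 3 before or replicate 3 at 48 (adjusted p up to 0.205).

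The window before the RefSeq start of Nr0b2 (chr4:133553126-133553375, plus strand, GRCm38.p6) is shown because Nr0b2 links the sensor to the synthesis genes. Capitals mark a pair of matches to TCAAGG, the core bound by the liver receptor homolog Nr5a2, and a match to TTCNNNGAA.

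Nr0b2: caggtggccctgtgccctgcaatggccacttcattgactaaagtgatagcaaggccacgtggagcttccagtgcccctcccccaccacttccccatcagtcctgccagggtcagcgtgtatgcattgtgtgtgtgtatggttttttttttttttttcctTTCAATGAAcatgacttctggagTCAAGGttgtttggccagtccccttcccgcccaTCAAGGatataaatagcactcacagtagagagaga

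The TCAAGG matches begin 68 and 35 bases before the start, and 12.5% of windows hold at least 1. The TTCNNNGAA match begins 91 bases before the start. Nr5a2, tested in the wider list of regulators, was called in no comparison with before.

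Markers of other processes and cells were measured beside these genes. The summed level of Mki67, Top2a, Ccnb1 and Cdk1 was 36.0 to 57.9 CPM in young before, 1671 to 3283 CPM at 48 and 476 to 1926 CPM at 72. In old mice it was 36.0 to 94.3 CPM before, 17.02 to 651 CPM at 48 and 688 to 1581 CPM at 72. Summed hepatocyte markers were 63575 to 71412 CPM in young before, 61450.0 to 70039 CPM at 48 and 45219 to 69263 CPM at 72. In old mice they were 51209 to 64693 CPM before, 48125 to 68110.3 CPM at 48 and 49756 to 66350 CPM at 72. Of the 7 hepatocyte markers tested, 3 were called lower and 1 higher in old at 48, against 12% and 12.1% of all genes. None was called in young at 48 or 72, or in old at 72. Macrophage markers (6 of 6 in the tables) summed to 395 to 569 CPM in young before and 394 to 554 CPM at 48, and to 519.5 to 772 CPM in old before and 97.8 to 598 CPM at 48. Endothelial markers (5 of 5 in the tables) summed to 303 to 350.2 CPM in young before, 166 to 250.4 CPM at 48 and 208 to 236 CPM at 72, without overlap with before. In old mice they summed to 251 to 365 CPM before, 202 to 286 CPM at 48 and 188 to 248 CPM at 72, and the last did not overlap with before. Over all libraries the sums were 40.8 to 314 CPM for cholangiocyte, 182 to 532 CPM for stellate and 0.445 to 20.9 CPM for lymphocyte markers, and of the last Cd3d was at 0 in 18 and Cd3e in 10 of 36 libraries. The part of these in the falls was not tested.

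The second comparison asked whether old and young mice differed in the 10 genes. At single time points none of 60 tests was called, and averaged over the 6 time points Cyp27a1 alone was called, lower in old. At 48, where 11.2% of all genes were called in either direction, the 10 genes had a median log2 difference of -0.66 (all genes 0.02), and 9 of 10 were below 0. The share of all genes called was 0.0595% before, 0% at 72, 0.171% at 96, 0% at 120 and 0.0149% at 240. Unadjusted p-values were under 0.05 in 5 of the 60 tests, 1 of them higher in old. The share of all genes under this unadjusted threshold was not counted, so the 5 have no background. DESeq2 called 1 of the 60. The difference of Cyp27a1 at 48 was -1.01 ± 0.34 (adjusted p 0.0533), which missed the threshold, and the libraries did not overlap, with 100.5, 47.8 and 180.2 CPM in old and 196, 279 and 189 CPM in young. Without old replicate 2 at 48 it was -0.66 ± 0.33 (adjusted p 0.296), and with a term for Y-linked transcripts it was called (-1.02 ± 0.34, adjusted p 0.047), where 12.9% of all genes were. Nr1h4 went the other way at 48 with 0.48 ± 0.18 (adjusted p 0.0838), and its libraries did not overlap, with 137, 105 and 118 CPM in old and 82.2, 103 and 72.2 CPM in young.

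Averaged over the time points, Cyp27a1 was lower in old, with a log2 difference of -0.54 ± 0.14 (adjusted p 0.0161), with a mean of 273 CPM in old and 386 CPM in young. It was the only one of 10 genes called, against 2.59% of all genes called lower. Its old mean was below the young mean at all 6 time points, and the libraries did not overlap before, at 48, at 96 and at 120. The call was lost within the libraries without Y-linked transcripts (-0.57 ± 0.17, adjusted p 0.0607) and within those with them (-0.49 ± 0.24, adjusted p 0.356). All 10 averaged differences were below 0 (9 of 10 with total-count scaling), with a median of -0.23 against 0.0017 over all genes. None of the other 9 was called. Slc10a1 gave -0.32 ± 0.15 (adjusted p 0.207) and Abcb11 -0.29 ± 0.16 (adjusted p 0.326), while Cyp7a1 gave -0.50 ± 0.40 (adjusted p 0.528) and Baat -0.01 ± 0.08 (adjusted p 0.956). The age by time interaction, which tests whether the course over time differed between the ages, was called for none of the 10 genes. It was called for 2.76% of all genes. Of the 10, 1 (Nr1h4) had an unadjusted p under 0.05 (0.0404, adjusted p 0.322), a threshold at which all genes were not counted. DESeq2 called 0 of the 10 for the interaction.

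**Figure D3:**
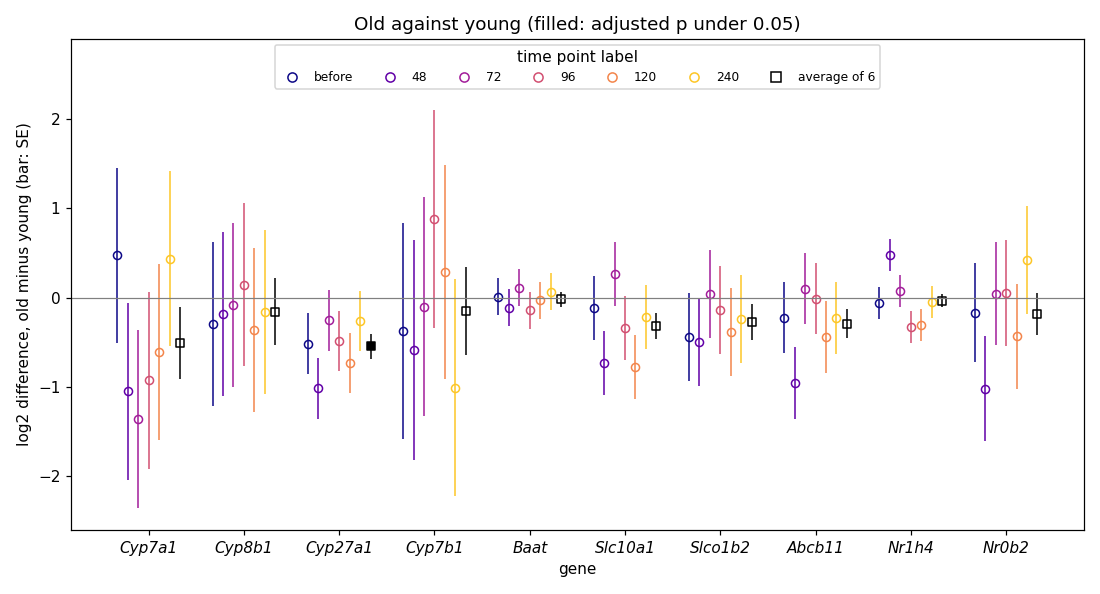
Log2 difference, old minus young, of each gene at each time point (circles) and averaged over the 6 time points (squares), with bars of 1 SE; a filled symbol has an adjusted p under 0.05. The average of Cyp27a1 (-0.54) is the only filled symbol, and its 6 circles all lie below 0.

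The third comparison set the 12 libraries with Y-linked transcripts against the other 24 in a fit with all 12 group means. Cyp7b1 was the 1 gene of the 10 that was called, against 4.56% of all genes called higher and 3.83% called lower. Cyp7b1 is known as a male-predominant gene of mouse liver. It was highest in the library with Y-linked transcripts in 12 of 12 groups. These libraries held from 77.7 to 303 CPM (median 127), and the others from 3.24 to 81.8 CPM (median 29.8). The sets overlapped only narrowly, by the lowest of the former and the highest of the latter. The difference was 2.40 ± 0.18 on the log2 scale, 5.27-fold (adjusted p 2.63e-10). Within a group the ratio to the mean of the other libraries ran from 1.82 to 14.4, with a median of 5.52.

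Measured in each age, the split in Cyp7b1 was 2.38 ± 0.26 in young and 2.41 ± 0.25 in old, and the difference between them was 0.03 ± 0.38 (adjusted p 0.996). It was 2.85 ± 0.30 at 48 and 72 and 2.18 ± 0.20 at the other time points, a difference of 0.66 ± 0.38 that was not called (adjusted p 0.688). In old mice at 96, for instance, Cyp7b1 stood at 223, 40.3 and 41.9 CPM with replicate 1 high, and at 120 at 30.8, 38.9 and 257 CPM with replicate 3 high. In young at 240 it stood at 303, 45.05 and 55.1 CPM with replicate 1 high, and that library gave this group its place as the highest mean.

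The other 9 genes were not called. Cyp8b1 differed by 0.55 ± 0.41 (adjusted p 0.478) and was highest in the library with Y-linked transcripts in 6 of 12 groups. Cyp7a1 differed by -0.59 ± 0.44 (adjusted p 0.479) and was lowest there in 6 of 12 groups. Slc10a1 was lowest there in 9 of 12 groups, with a difference of -0.14 ± 0.16 (adjusted p 0.659). Nr1h4, with 0.01 ± 0.08 (adjusted p 0.983), and Baat, with 0.08 ± 0.09 (adjusted p 0.64), had the smallest standard errors.

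**Figure D4:**
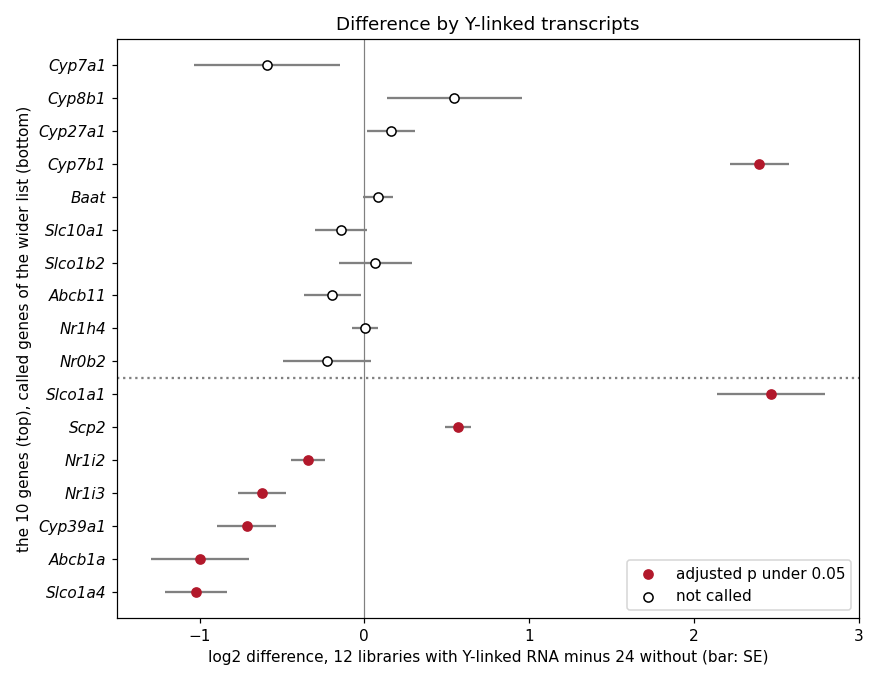
Log2 difference between the 12 libraries with Y-linked transcripts and the 24 others for the 10 genes (above the dotted line) and for the called genes of the wider list (below it), with bars of 1 SE; filled points have an adjusted p under 0.05. Cyp7b1 (2.40) and Slco1a1 (2.47) stand apart on the right.

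A wider list of 39 genes of the pathway, of which 35 could be tested (11 synthesis, 12 transport and 12 regulators), showed where the 10 genes sat among their neighbours. In young mice at 48, 5 of 35 fell and none rose, 4 of the fallers being transporters, where 9.79% of all tested genes were called lower and 12.2% higher. The sterol exporters Abcg5 (-1.93 ± 0.40) and Abcg8 (-1.88 ± 0.35) and the canalicular exporter Abcc2 (-1.11 ± 0.25) fell the most. At 72, 6 fell and none rose, against 8.21% and 9.21% of all genes, led by Abcg8 (-1.86 ± 0.35), Abcg5 (-1.55 ± 0.39) and the basolateral exporter Abcc3 (-1.14 ± 0.26). None of the 12 regulators was called in young at either time. In old mice at 48, 10 fell and 4 rose, against 12% and 12.1% of all genes, with the largest falls in the uptake carrier Slco1a4 (-2.31 ± 0.63), the reductase Akr1d1 (-2.26 ± 0.60) and the basolateral exporter Abcc4 (-2.10 ± 0.45). The risers with the largest changes were S1pr2, a receptor that responds to conjugated bile acids (1.44 ± 0.33), Abcb4, which moves phospholipid into bile (1.08 ± 0.33), and the peroxisomal oxidase Acox2 (0.85 ± 0.30). Leaving out old replicate 2, 10 fell and 3 rose, where 16.8% of all genes were called in either direction. In old at 72, 5 fell and 1 rose, against 5.81% and 6.54% of all genes, the fallers among them Abcc4 (-1.71 ± 0.44), Abcg8 (-1.21 ± 0.34) and Abcg5 (-1.17 ± 0.39). The gene called higher was Slc51b, a subunit of a basolateral exporter, with 0.470, 0.894 and 1.37 CPM before and 1.85, 0.702 and 13.8 CPM at 72. Its groups overlapped, and replicate 3 at 72, with Y-linked transcripts, was far above the rest. The change was 2.56 ± 0.85, and 0.49 ± 0.88 without that library (adjusted p 0.802).

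Each of the 21 changes named here from the wider list at 48 and 72, between the ages included, was also fitted without each library of its groups, and 9 were called in every fit. These were the 6 falls named in young, and S1pr2, Akr1d1 and Abcc4 in old at 48. The other 12 were each lost without at least 1 library. Acox2 and Slco1a4 were not called in old at 48 without old replicate 2 there (adjusted p 0.216 and 0.062), and Abcb4 was not called without replicate 1 there (adjusted p 0.104). Abcc4, Abcg8 and Abcg5 were not called in old at 72 without old replicate 3 before (adjusted p 0.087, 0.135 and 0.254).

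Between the ages at 48, 4 genes of the wider list were lower in old and 2 higher, 6 of 35 against 11.2% of all genes. Akr1d1 (-1.93 ± 0.59), Slco1a4 (-1.91 ± 0.63) and Slc27a5, which activates bile acids for conjugation by Baat (-0.96 ± 0.29), were lower. S1pr2 (1.21 ± 0.32) and the flippase Atp8b1 (0.50 ± 0.15) were higher. Without old replicate 2 at 48, edgeR called none of these 6, where it called 5.01% of all genes. Averaged over the time points, the uptake carrier Slco1a1 was lower in old (-2.01 ± 0.57, adjusted p 0.0333), with means of 55.9 and 231 CPM, and so was Slc27a5 (-0.47 ± 0.12, adjusted p 0.0156), while Abcc4 (0.85 ± 0.19) and S1pr2 (0.49 ± 0.14) were higher. Slco1a1 was also 2.47 ± 0.33 higher in the libraries with Y-linked transcripts (adjusted p 9.26e-06), with means of 272 and 78.9 CPM, and is known as male-predominant like Cyp7b1. Its age difference was -3.04 ± 0.38 in the libraries without these transcripts (adjusted p 2.06e-05) and -1.51 ± 0.48 in those with them (adjusted p 0.105), and the difference between the sets was not called (1.52 ± 0.62, adjusted p 0.506). The peroxisomal thiolase Scp2 (0.57 ± 0.08) was higher with Y-linked transcripts. Slco1a4 (-1.02 ± 0.19), the drug exporter Abcb1a (-0.998 ± 0.30) and the oxysterol hydroxylase Cyp39a1 (-0.71 ± 0.18) had the most negative called differences. In all, 2 of the 35 genes were called higher and 5 lower, against 4.56% and 3.83% of all genes. Of the 5, 2 were regulators. Slco1a1, Slco1a4 and Abcb1a have close paralogs between which counting may have split reads, so their values are uncertain.

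Over the 12 group means of log2(CPM + 1), the tested genes most like Cyp7a1 by Pearson correlation were Gsta3 (0.970), Akr1c19 (0.964) and Afmid (0.962). Those most like Cyp8b1 were Ggps1 (0.948), C1ra (0.946) and Ugp2 (0.938). Cyp7b1 was most like Cyp8b1 (0.926), Azgp1 (0.908) and Ugt3a2 (0.904). The means come from the same 36 libraries, old at 48 included, and the values describe these groups without a test.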

How the data were processed

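The authors deposited 1 table of raw counts per library, whole-number read counts per gene symbol from rRNA-depleted total RNA, per the labels' protocols. The submitters' processing notes name bcl2fastq 2.20.0, Trimmomatic 0.39, STAR 2.7.5b, SAMtools 1.10, featureCounts and the builds GRCm38 and mm10. The annotation and strand setting are not given in the sources used here, so reads of overlapping or antisense genes cannot be told apart. The labels name spike-ins that differ between the ages, but the tables hold 0 spike-in rows. Of the rows, 27 carried date-like names and 2 a repeated symbol.

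The counts went into edgeR (version 4.0.16, R 4.3.3) with TMM scaling, filterByExpr, 12 group means and robust quasi-likelihood fits (biological coefficient of variation 24.7%), and p-values were Benjamini-Hochberg adjusted over 13436 genes. SE is the log2 change over the square root of F. The Y-linked split (over 10 CPM) was added as an indicator. Alternatives used DESeq2 1.42.0, other scalings and filters, and fewer libraries. Promoters came from RefSeq (GRCm38.p6) and gene spans from GENCODE (GRCm38). Members, lists and motifs were chosen with earlier results of these data known. Named genes were all 10 members, up to 3 called genes of the wider list per direction with the largest change, and the 3 genes most like each of 3 members. Genes added outside that rule are markers. The fitting was tested on simulated data. P-values measure the spread between libraries, which may be technical.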

Additional observations from a re-analysis of the deposited data

How the results depend on the processing

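Over 49 other settings none of the 14 called changes reversed, and 4 were lost in no setting: Cyp27a1 in young at 48 and at 72, Nr1h4 in young at 48, and Cyp7b1 with Y-linked transcripts. Calls in old against before went from 6 to 3 when only the groups compared were fitted: the 5 calls in old at 48 were lost (adjusted p 0.0687 for Cyp27a1, 0.176 for Slc10a1, 0.373 for Abcb11, 0.205 for Nr0b2 and 0.0604 for Baat) and 2 were gained (Slc10a1 at 72 and 120). Calls in old against young at single time points went from 0 to 1 with RLE scaling, total-count scaling, the replicate block, the Y-linked term, the libraries without Y-linked transcripts alone and DESeq2. The averaged age difference went from 1 call to 0 with the replicate block, in the libraries without Y-linked transcripts alone, and within the libraries without and with these transcripts (the last 2 chosen after seeing the data), and the cause was not tested. Leaving out 1 library at a time (36 fits) gave 4 to 9 calls in young against before, 3 to 8 in old against before, 0 to 3 between the ages at single time points, 1 to 1 on average, 0 to 0 for the interaction and 1 to 1 for the Y-linked split. The 3 between the ages came without old replicate 3 at 48 (Abcb11 -1.68, Cyp27a1 -1.58 and Cyp7a1 -3.72), 2 came without young replicate 3 at 72, and 1 came without young replicate 2 at 48, young replicate 1 at 72, old replicate 1 at 48, old replicate 1 or 3 at 72, or old replicate 3 at 120. The 4 in young came without young replicate 1 at 72 and the 9 without old replicate 2 at 48 or young replicate 3 at 72, and the 3 in old came without old replicate 3 before. Libraries of the same replicate number did not deviate together (mean correlation 0.058 over 90 pairs, from -0.378 to 0.578), so the numbers do not pair them. With the replicate block 6 calls were made in young, 7 in old, 0 for the interaction and 1 for the Y-linked split. The fits pool the spread over 36 libraries of 2328233 to 6034446 counts, and a group left with 2 libraries is assumed to vary like the others.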
